A study of Mus musculus with 12 samples.

Results

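The elastic fibre genes examined here were the core elastin Eln, the fibrillins Fbn1 and Fbn2, the fibulins Fbln1, Fbln2, Fbln5, Efemp1 and Efemp2, and the associated glycoproteins Mfap4 and Emilin1. They were taken by gene symbol, 10 genes among the 23282 rows of the count tables. Fbln5 gives the set its name because its low level after Pdcd5 knockdown was already known, so its values after knockdown are given as a description with no test. After a filter on low counts 6 of the 10 genes could be tested (Fbn1, Fbln2, Fbln5, Efemp1, Efemp2 and Emilin1), among 12425 genes tested in all.

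RNA was measured in C22 cells, a cloned mouse club cell line from H-2Kb-tsA58 transgenic mice, whose thermolabile SV40 large T antigen lets the cells divide at a permissive temperature with interferon-gamma and differentiate after both are withdrawn. There were 4 groups of 3 libraries. NC cells received a negative control and no cytokine, and NC + TGF-β1 cells received the negative control and 20 ng/ml TGF-β1 for 24 h. siPDCD5 cells had Pdcd5 knocked down and no cytokine, and siPDCD5 + TGF-β1 cells had the knockdown and 20 ng/ml TGF-β1 for 24 h. All cells carried the transgene and were differentiated, and the protocol gives a short serum starvation before the cytokine was added. The line is 1 clone, and neither the labels nor the methods say whether the 3 libraries of a group came from separate cultures, so p-values measure only the spread between these samples, which may be technical.

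Elastic fibres consist of a core of cross-linked elastin deposited on a scaffold of fibrillin microfibrils. Tropoelastin, the product of Eln, is brought to the microfibrils by fibulins, in which fibulin-5 (Fbln5) binds elastin and cell surface integrins, and fibulin-4 (Efemp2) binds the cross-linking enzyme lysyl oxidase. In the lung these fibres give recoil to airways and alveoli, and the microfibrils also hold latent TGF-β in the matrix. TGF-β1 is a well-known inducer of matrix genes and acts on transcription through SMAD proteins.

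The starts of Fbln5 and of Efemp1 are shown because Fbln5 was lowered after knockdown and Efemp1 alone fell after TGF-β1. Their windows also lie outside the annotated exons of the 10 genes apart from at most 1 base each. Exons of other genes were not searched. The letters are the 250 bases before a RefSeq transcript start, from GRCm38.p6, written 5′ to 3′ on the strand of the gene. Capitals mark CAGAC or its reverse complement GTCTG, the core of the SMAD-binding box, searched on both strands as 1 motif. Fbln5 has 2 such windows, of which the outer, chr12:101819120-101819369 on the minus strand, held 0 motifs in the letters shown and 1 motif 30 bases past the start. The inner, chr12:101818485-101818734 on the minus strand, lies inside the annotated gene, with 1 base in an exon, and held 2 motifs. The Efemp1 window, chr11:28852955-28853204 on the plus strand, held 0 motifs in the letters shown and 1 motif 31 bases past the start.
Fbln5 outer start: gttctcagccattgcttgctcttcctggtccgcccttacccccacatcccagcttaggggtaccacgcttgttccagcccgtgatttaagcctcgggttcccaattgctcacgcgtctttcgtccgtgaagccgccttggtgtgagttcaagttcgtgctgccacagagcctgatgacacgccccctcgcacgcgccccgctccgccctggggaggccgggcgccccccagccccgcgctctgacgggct
Fbln5 inner start: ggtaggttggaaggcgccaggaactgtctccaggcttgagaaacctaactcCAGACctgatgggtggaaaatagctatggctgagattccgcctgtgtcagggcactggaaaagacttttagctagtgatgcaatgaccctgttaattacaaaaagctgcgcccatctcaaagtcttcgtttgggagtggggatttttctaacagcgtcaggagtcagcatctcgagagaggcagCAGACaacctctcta
Efemp1 start: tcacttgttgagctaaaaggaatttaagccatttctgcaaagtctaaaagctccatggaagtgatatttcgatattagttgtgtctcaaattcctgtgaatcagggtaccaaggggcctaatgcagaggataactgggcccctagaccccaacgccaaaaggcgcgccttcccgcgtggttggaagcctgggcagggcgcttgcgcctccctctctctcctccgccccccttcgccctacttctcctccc
Of the 10 elastic fibre genes, 7 had a window in the table used here. Of their 11 windows of 300 bases (250 before and 50 after the start), 7 held the motif. It was present in 49.6% of all 32851 windows of that length. Besides Fbln5 and Efemp1, it was present in at least 1 window of Emilin1, Fbln1 and Efemp2 and absent from those of Fbn1 and Fbln2. For Fbn1, Fbln2 and Emilin1 all 250 bases before the start lie in annotated exons. A match is a description of the letters only.

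The libraries held 12809857 to 17714828 counts each, so that 3 counts, taken as the smallest level a library can show, corresponded to 0.169 to 0.234 CPM, the counts scaled to a common library size. The reads carry no molecular identifiers, and this limit covers counting error only. Pdcd5, the targeted gene, lay between 65.1 and 73.5 CPM in NC and between 66.3 and 69.7 CPM in NC + TGF-β1, against 20.0 to 22.1 CPM in siPDCD5 and 21.8 to 26.3 CPM in siPDCD5 + TGF-β1, so that every knockdown library was below every NC library. Of the markers that define club cells, Scgb1a1 had at most 1 count in a library and Scgb3a2 and Cyp2f2 had 0 in all 12, while Aldh1a1 had means of 553 CPM in NC, 238 CPM in NC + TGF-β1, 305 CPM in siPDCD5 and 160 CPM in siPDCD5 + TGF-β1. Of the epithelial keratins, Krt8 had 189, 486, 193 and 446 CPM and Krt18 had 495, 1024, 446 and 1156 CPM in the same order, while Epcam had at most 1 count. The other general epithelial markers examined were low. Krt7 had 2.45, 2.36, 1.97 and 2.95 CPM and Cdh1 had 3.18, 2.12, 2.37 and 2.18 CPM. Krt19, Cldn4 and Cldn7 had at most 4, 2 and 6 counts in a library. The basal cell keratin Krt14 had 10.8, 187, 3.51 and 82.4 CPM, and the other basal markers Krt5, Trp63 and Ngfr had at most 3 counts in a library. Apart from Aldh1a1, the defining club cell markers were thus at or near 0, against the label. The summed level of 9 fibroblast markers, nearly all of it Col1a1 and Col3a1, lay between 3761 and 4005 CPM in NC, 7447 and 8065 CPM in NC + TGF-β1, 2562 and 3137 CPM in siPDCD5, and 5613 and 5972 CPM in siPDCD5 + TGF-β1, while Tcf21 had 0 counts in every library and Lum at most 1. Other genes of that list went against the order of the sum, such as Dcn, with means of 95.7, 22.6, 144 and 41.5 CPM in the same order of groups, Col1a2, whose mean was lowest in NC (3.58 CPM) and highest in siPDCD5 + TGF-β1 (39.5 CPM), and Pdgfra, whose mean was highest in NC (5.90 CPM) and lowest in siPDCD5 + TGF-β1. The summed level of 5 smooth muscle markers, nearly all of it Acta2, followed the order of the fibroblast sum, from 248 to 302 CPM in siPDCD5, 528 to 579 CPM in NC, 781 to 810 CPM in siPDCD5 + TGF-β1 and 1468 to 1585 CPM in NC + TGF-β1. These levels move with several of the elastic fibre genes below, and their part in those results was not tested. In bulk RNA, fewer cells of a type and less RNA per cell cannot be told apart.

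Elastin itself was at or near 0. Eln (chromosome 5, 134702593 to 134747323, minus strand, as all gene positions here in GRCm38) had 1 count in NC + TGF-β1 replicate 1, 1 count in siPDCD5 replicate 2 and 0 in the other 10 libraries. Fbn2, the fibrillin of developing microfibrils, had 0 counts in all 12 libraries. Fbln1 (chromosome 15, 85205949 to 85286535), a fibulin of the elastin core, had 1, 0 and 2 counts in NC + TGF-β1 and 0 elsewhere. Mfap4 (chromosome 11, 61485431 to 61488900), a microfibril-associated protein that binds tropoelastin, had 5, 1 and 3 counts in NC + TGF-β1, 6, 0 and 0 in siPDCD5 + TGF-β1, and 0 in every library without the cytokine. On the other strand, Eln overlaps Gm30003 and Mfap4 overlaps Mapk7. Since the use of strand in counting is not stated, the few reads of Eln and Mfap4 cannot be assigned. At this depth these 4 genes were too low to test.

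Treatment of NC cells with TGF-β1 raised Fbn1, Fbln2, Fbln5 and Emilin1 and lowered Efemp1. Fbln5 is left out of the counts here, since the NC and NC + TGF-β1 libraries were references for its low level. Of the other 5 tested genes, 3 rose and 1 fell at an adjusted p under 0.05 (quasi-likelihood test of edgeR, p adjusted by Benjamini-Hochberg over all genes, used throughout). Of all genes tested 15.3% passed, 8.57% higher and 6.77% lower. The log2 fold changes of the 5 genes ran from −1.12 (Efemp1) to 1.16 (Emilin1), against a median of 0.005 over all genes tested. The treated and untreated libraries did not overlap for the 4 genes that passed, 3 higher and 1 lower, as for 29.6% of all genes tested (15.3% higher and 14.3% lower). In siPDCD5 cells, leaving out Fbln5, which was chosen for its low level there, 3 of the other 5 tested genes rose (Fbn1, Fbln2 and Emilin1) and 1 fell (Efemp1) after TGF-β1, where 16.1% of all genes passed, 8.5% higher and 7.61% lower. Here the groups did not overlap for these 5 genes, 4 higher and 1 lower, as for 36.1% of all genes (17.9% higher and 18.1% lower). The log2 fold changes of these 5 genes ran from −0.80 (Efemp1) to 1.41 (Fbn1), against a median of −0.03 over all genes. The set was chosen with these results known, and nothing is read from the counts.

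**Figure D1:**
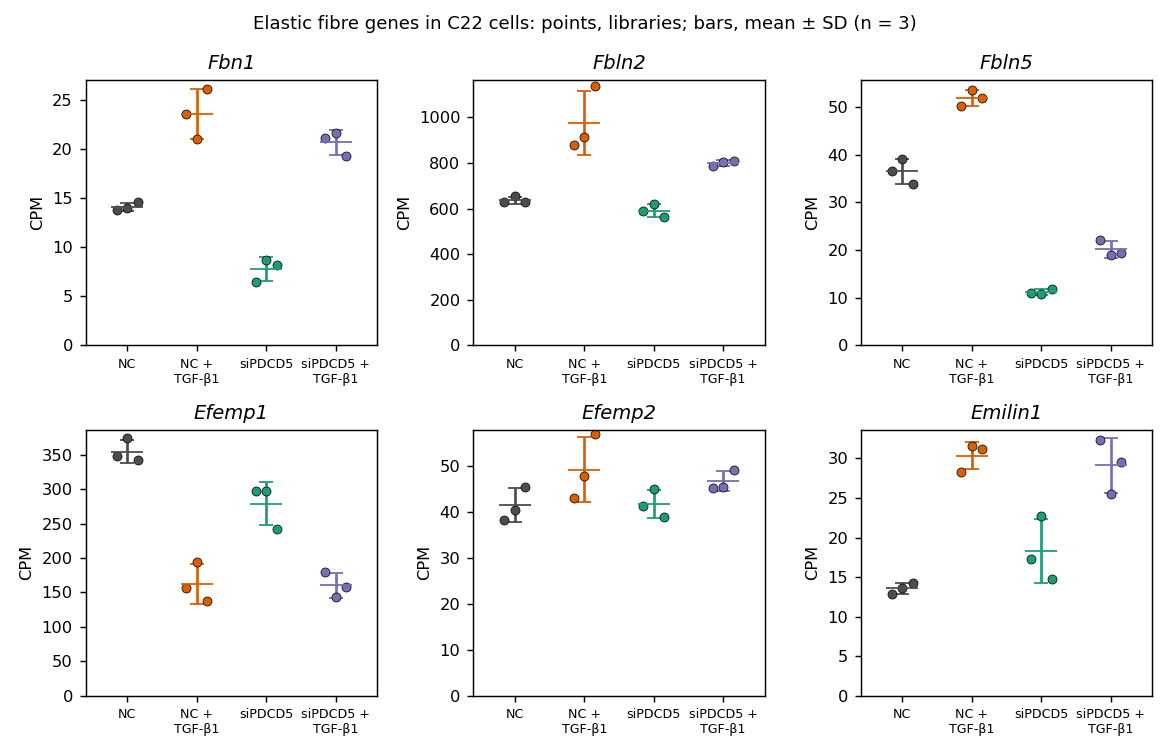
Level of the 6 tested elastic fibre genes in CPM (y axes from 0) in each of the 4 groups, with a point for each library and bars for mean ± SD (n = 3). Fbln5 separates into 4 levels that do not overlap, from 10.8 to 11.9 CPM in siPDCD5 up to 50.2 to 53.6 CPM in NC + TGF-β1, while Efemp2 lies between 38.4 and 56.9 CPM in all libraries.

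Fbn1 (chromosome 2, 125300594 to 125507993, minus strand), fibrillin-1, builds the microfibril scaffold and binds the large latent TGF-β complex. It had 13.8, 14.0 and 14.6 CPM in the 3 NC libraries, 23.6, 21.1 and 26.1 CPM in NC + TGF-β1, 6.42, 8.66 and 8.24 CPM in siPDCD5, and 21.1, 21.7 and 19.3 CPM in siPDCD5 + TGF-β1. The siPDCD5 libraries were the lowest, the NC libraries came next, and both cytokine-treated groups lay above them and overlapped each other. After TGF-β1 it rose 1.67-fold in NC cells (log2 fold change 0.74, SE 0.13, edgeR adjusted p = 0.00115) and 2.65-fold in siPDCD5 cells (1.41, SE 0.14, edgeR adjusted p = 5.28e-06). Knockdown lowered it 1.81-fold without the cytokine (log2 fold change −0.85, SE 0.14, edgeR adjusted p = 0.00293). With the cytokine the knockdown value was −0.19 (SE 0.13, edgeR adjusted p = 0.571), with a 95% interval from −0.46 to 0.09. The response to TGF-β1 was larger by 0.67 on the log2 scale in siPDCD5 than in NC cells (SE 0.19, edgeR adjusted p = 0.771), a difference that did not pass the threshold. Fbn1 overlaps Gm9913 on the other strand, and reads of the 2 genes cannot be told apart without knowing the use of strand.

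Fbln5 (chromosome 12, 101746565 to 101819055, minus strand), fibulin-5, tethers elastin to microfibrils and to integrins and overlaps no other annotated gene. It had 36.7, 39.0 and 33.9 CPM in NC, from 482, 526 and 441 counts. After TGF-β1 it had 50.2, 53.6 and 51.9 CPM in NC cells. In siPDCD5 cells it had 10.9, 10.8 and 11.9 CPM, from 148, 196 and 185 counts, and in siPDCD5 + TGF-β1 cells 22.2, 19.0 and 19.4 CPM. The groups did not overlap, and every knockdown library, with or without the cytokine, lay below every NC library. Means were 36.5 ± 2.58 CPM in NC, 51.9 ± 1.68 CPM in NC + TGF-β1, 11.2 ± 0.607 CPM in siPDCD5 and 20.2 ± 1.77 CPM in siPDCD5 + TGF-β1 (SD, n = 3 each). As a description with no test, the level was 3.25-fold lower after knockdown without the cytokine (log2 fold change −1.70, SE 0.11) and 2.57-fold lower with it (−1.36, SE 0.10). Pdcd5 itself had log2 fold changes of −1.69 (SE 0.10) and −1.49 (SE 0.10) in the same comparisons. After TGF-β1, Fbln5 rose 1.42-fold in NC cells (log2 fold change 0.51, SE 0.10, edgeR adjusted p = 0.00254). In siPDCD5 cells its level was 1.80-fold higher with the cytokine (0.85, SE 0.11), and the difference of these 2 responses was 0.34 on the log2 scale (SE 0.15). Both are a description with no test, since they contain the low siPDCD5 libraries for which the gene was chosen. The NC and NC + TGF-β1 libraries were the references for that low level. The p for TGF-β1 in NC cells is therefore not independent of that choice.

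**Figure D2:**
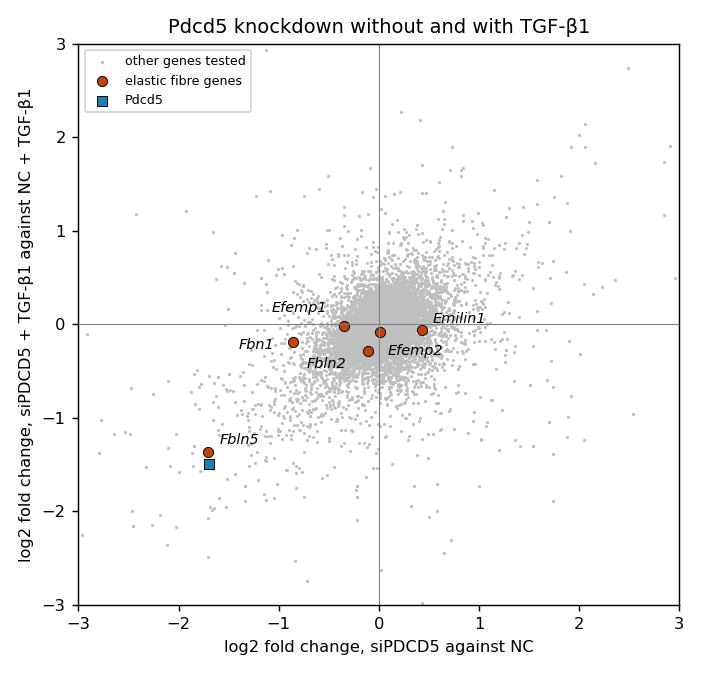
Log2 fold change after Pdcd5 knockdown without TGF-β1 (x axis) and with TGF-β1 (y axis) for the genes tested, with the 6 elastic fibre genes as orange points and Pdcd5 as a blue square (18 genes beyond ±3 are not drawn). Fbln5, at −1.70 and −1.36, lies beside Pdcd5, at −1.69 and −1.49, while the other elastic fibre genes lie closer to 0 on both axes.

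Of the other fibulins, Fbln2 (chromosome 6, 91212455 to 91272540), a fibulin that binds fibrillin-1 and tropoelastin, had 629, 654 and 627 CPM in NC, 878, 913 and 1136 CPM in NC + TGF-β1, 590, 620 and 562 CPM in siPDCD5, and 785, 804 and 810 CPM in siPDCD5 + TGF-β1. The 4 groups did not overlap, and NC + TGF-β1 replicate 3 stood above the other libraries. It rose after TGF-β1 1.53-fold in NC cells (log2 fold change 0.62, SE 0.10, edgeR adjusted p = 4.18e-04) and 1.35-fold in siPDCD5 cells (0.44, SE 0.10, edgeR adjusted p = 0.00607). The knockdown values were −0.11 without the cytokine (SE 0.10, edgeR adjusted p = 0.669) and −0.29 with it (SE 0.10, edgeR adjusted p = 0.183). Both missed the threshold although the groups did not overlap, which held in the lower direction for 12.5% and 10% of all genes tested.

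Efemp1 (chromosome 11, 28853204 to 28926743), fibulin-3, was the single gene of the set that fell after TGF-β1. It had 348, 374 and 342 CPM in NC, 157, 194 and 137 CPM in NC + TGF-β1, 297, 297 and 242 CPM in siPDCD5, and 180, 143 and 158 CPM in siPDCD5 + TGF-β1. The cytokine-treated groups overlapped each other and lay below the siPDCD5 libraries, which lay below the NC libraries. The level fell 2.18-fold in NC cells (log2 fold change −1.12, SE 0.13, edgeR adjusted p = 2.56e-05) and 1.74-fold in siPDCD5 cells (−0.80, SE 0.13, edgeR adjusted p = 5.60e-04). After knockdown the values were −0.34 without the cytokine (SE 0.13, edgeR adjusted p = 0.192) and −0.02 with it (SE 0.13, edgeR adjusted p = 0.968), with a 95% interval from −0.30 to 0.26 for the latter.

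Efemp2 (chromosome 19, 5473954 to 5482517), fibulin-4, passed the threshold in none of the 5 comparisons. It had 38.4, 40.6 and 45.6 CPM in NC, 43.0, 47.9 and 56.9 CPM in NC + TGF-β1, 41.3, 45.2 and 39.0 CPM in siPDCD5, and 45.4, 45.6 and 49.3 CPM in siPDCD5 + TGF-β1. The NC, NC + TGF-β1 and siPDCD5 libraries overlapped. The log2 fold change after TGF-β1 was 0.25 in NC cells (SE 0.12, edgeR adjusted p = 0.183) and 0.16 in siPDCD5 cells (SE 0.11, edgeR adjusted p = 0.393). The siPDCD5 + TGF-β1 libraries lay wholly above the siPDCD5 libraries. After knockdown the 95% interval ran from −0.24 to 0.26 without the cytokine and from −0.32 to 0.17 with it. Efemp2 overlaps Mus81 on the other strand.

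Emilin1 (chromosome 5, 30913402 to 30921277) encodes a glycoprotein found where elastin meets the microfibrils. It had 12.9, 13.7 and 14.2 CPM in NC, 28.3, 31.5 and 31.2 CPM in NC + TGF-β1, 17.3, 22.8 and 14.8 CPM in siPDCD5, and 32.3, 25.5 and 29.6 CPM in siPDCD5 + TGF-β1. The cytokine-treated libraries lay above all others, and the siPDCD5 libraries lay above the NC libraries with replicate 2 the highest. It rose after TGF-β1 2.24-fold in NC cells (log2 fold change 1.16, SE 0.15, edgeR adjusted p = 8.08e-05) and 1.59-fold in siPDCD5 cells (0.67, SE 0.15, edgeR adjusted p = 0.00565). Its knockdown values were 0.43 without the cytokine (SE 0.15, edgeR adjusted p = 0.162) and −0.06 with it (SE 0.14, edgeR adjusted p = 0.912). Without the cytokine it was the single member of the set whose knockdown libraries lay wholly above the NC libraries, as they did for 10.6% of all genes tested.

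**Figure D3:**
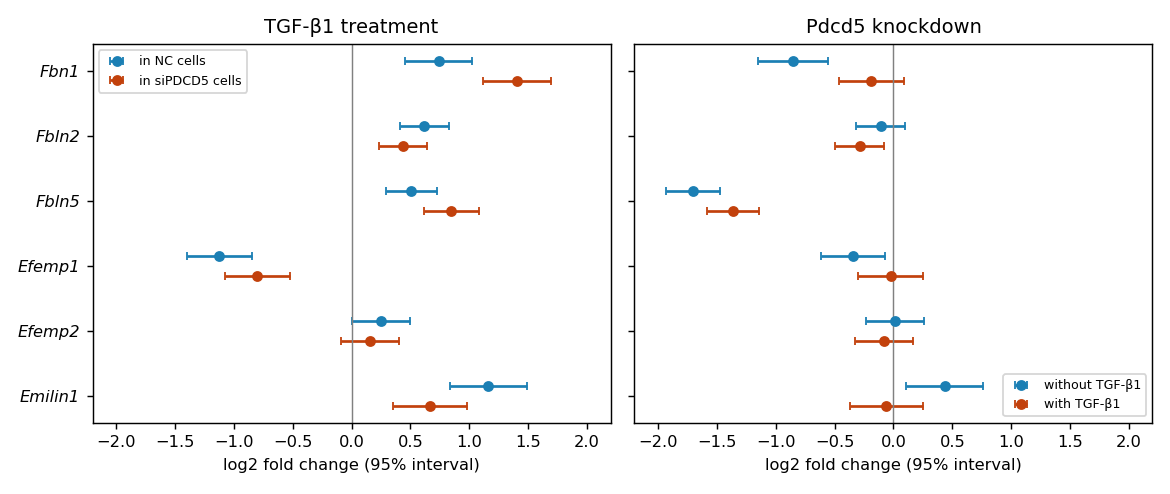
Log2 fold change (x axes) with 95% intervals for the 6 tested elastic fibre genes after TGF-β1 (left) and after Pdcd5 knockdown (right), in blue for NC cells or no cytokine and in orange for siPDCD5 cells or TGF-β1. After TGF-β1 Efemp1 lies at −1.12 and −0.80 and the other genes above 0, while after knockdown Fbln5 lies lowest at −1.70 and −1.36.

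Leaving out Fbln5, whose knockdown values are not counted, 0 of the other 5 tested genes rose and 1 fell (Fbn1) after knockdown without the cytokine, where 3.44% of all genes passed, 0.901% higher and 2.54% lower. With the cytokine 0 of these 5 genes passed, where 1.55% of all genes did, 0.33% higher and 1.22% lower. Without the cytokine the groups did not overlap for 4 of the 5, 1 higher and 3 lower, as for 23.1% of all genes (10.6% higher and 12.5% lower). With it they did not overlap for 1 of the 5 (Fbln2, lower), as for 18.9% of all genes (8.84% higher and 10% lower). The log2 fold changes of the 5 genes ran from −0.85 (Fbn1) to 0.43 (Emilin1) without the cytokine. With it they ran from −0.29 (Fbln2) to −0.02 (Efemp1). The medians over all genes tested were 0.02 and −0.02. The difference of the TGF-β1 responses passed the threshold for 0 of the 5 genes and for 0% of all genes in edgeR, with 638 genes (5.13%) at an unadjusted p under 0.05, and DESeq2 called 15 genes. On the log2 scale this difference was 0.67 for Fbn1 and 0.32 for Efemp1. It was −0.18 for Fbln2, −0.09 for Efemp2 and −0.49 for Emilin1. The knockdown comparison without the cytokine shares the NC libraries with the TGF-β1 comparison in NC cells, so the values of a gene in these comparisons are not independent.

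The make-up of the elastic fibre transcripts also differed between the groups. The 3′ libraries give about the same number of reads to a transcript whatever its length, so shares of counts depend little on length. Reads from overlapping genes on the other strand, as for Fbn1 and Efemp2, can still affect shares and ratios. Fbln2 and Efemp1 held most of the counts of the 10 genes. Fbln2 took 57.6% to 58.3% in NC, 72.4% to 78.9% in NC + TGF-β1, 61.3% to 64.0% in siPDCD5 and 72.3% to 75.9% in siPDCD5 + TGF-β1. Efemp1 took 31.7% to 32.9%, 9.52% to 15.4%, 27.6% to 30.9% and 13.5% to 16.5% in the same order. Fbln5 took 3.14% to 3.44% in NC and 3.60% to 4.25% in NC + TGF-β1, against 1.08% to 1.36% in siPDCD5 and 1.78% to 2.05% in siPDCD5 + TGF-β1. There were 0.742 to 0.962 Fbln5 counts per Efemp2 count in NC and 0.911 to 1.17 in NC + TGF-β1, but 0.239 to 0.305 in siPDCD5 and 0.393 to 0.490 in siPDCD5 + TGF-β1. Per Fbn1 count, there were 2.32 to 2.78 Fbln5 counts in NC, 1.99 to 2.54 in NC + TGF-β1, 1.25 to 1.70 in siPDCD5 and 0.875 to 1.05 in siPDCD5 + TGF-β1. Neither ratio depends on library scaling. By both, the knockdown libraries lay below the NC libraries, which restates the low Fbln5 counts for which the gene was chosen. Fbn1 itself fell after knockdown without the cytokine and rose after TGF-β1, so the ratio to Fbn1 moves with both genes.

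**Figure D4:**
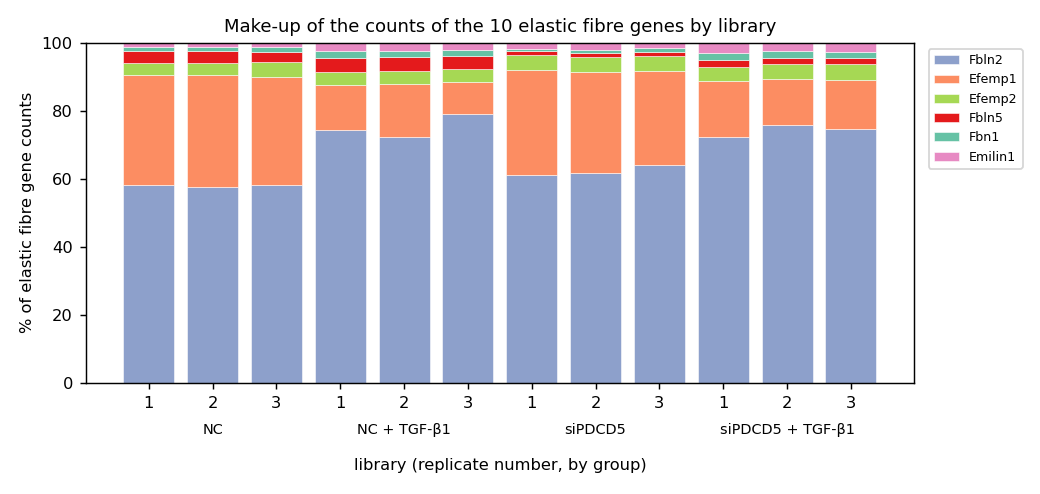
Share of the summed counts of the 10 elastic fibre genes (y axis, percent) held by each gene in each of the 12 libraries (x axis, replicates by group). Fbln2 and Efemp1 fill most of each bar, the Efemp1 part shrinks from 31.7% to 32.9% in NC to 9.52% to 15.4% in NC + TGF-β1, and the red Fbln5 part is thinnest in the siPDCD5 libraries.

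A further list of 55 genes of the elastic fibre pathway, chosen by role, covered microfibril partners, latent TGF-β binding proteins, cross-linking enzymes, receptors, processing and degrading enzymes and their inhibitors. Of these, 53 were in the files and 32 could be tested, and the other 21 had at most 22 counts in a library. After TGF-β1 16 of the 32 rose and 4 fell in NC cells (median log2 fold change 0.59), where 8.57% of all genes rose and 6.77% fell. In siPDCD5 cells 14 rose and 5 fell (median 0.36), where 8.5% of all genes rose and 7.61% fell. After knockdown 1 rose and 4 fell without the cytokine (median −0.06), where 0.901% of all genes rose and 2.54% fell. With it 1 rose and 3 fell (median −0.27), where 0.33% of all genes rose and 1.22% fell. For the difference of responses 0 passed. The list was chosen with earlier results of these data known, and nothing is read from these counts.

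Among microfibril partners, Bgn and Dcn, which encode the matrix proteoglycans biglycan and decorin, moved in opposite directions after TGF-β1. Bgn rose by 2.35 in NC cells (SE 0.40, edgeR adjusted p = 8.70e-04) and by 2.90 in siPDCD5 cells (SE 0.39, edgeR adjusted p = 1.13e-04) on the log2 scale, from mean levels of 0.732 and 0.647 CPM. Dcn had 91.7, 94.3 and 101 CPM in NC, 21.8, 22.1 and 23.9 CPM in NC + TGF-β1, 137, 162 and 134 CPM in siPDCD5, and 42.1, 40.1 and 42.2 CPM in siPDCD5 + TGF-β1. It fell after TGF-β1 in NC cells (log2 fold change −2.08, SE 0.10, edgeR adjusted p = 6.47e-09) and rose after knockdown both without the cytokine (0.59, SE 0.09, edgeR adjusted p = 0.00234) and with it (0.88, SE 0.10, edgeR adjusted p = 5.44e-04). The 4 groups did not overlap, and Dcn, which is also among the fibroblast markers, was the single gene of the list that rose after knockdown.

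Of the latent TGF-β binding proteins, Ltbp4, which binds fibulin-5, had 16.4, 16.5 and 16.3 CPM in NC, 13.6, 12.5 and 13.5 CPM in NC + TGF-β1, 7.90, 9.65 and 8.95 CPM in siPDCD5, and 6.11, 7.02 and 6.86 CPM in siPDCD5 + TGF-β1. It fell after knockdown without the cytokine (log2 fold change −0.89, SE 0.13, edgeR adjusted p = 0.00163) and with it (−0.98, SE 0.13, edgeR adjusted p = 0.00145), and every knockdown library was below every NC library. Ltbp2, which binds fibrillin-1, had 4, 11 and 15 counts in NC and 1, 0 and 1 in siPDCD5 (edgeR adjusted p = 0.0475), against 19, 13 and 30 in NC + TGF-β1 and 23, 15 and 4 in siPDCD5 + TGF-β1. These counts are too low for a stable fold change, and the call after knockdown was kept in only 4 of the 12 fits with a library left out (edgeR adjusted p from 0.0257 to 0.18).

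Of the enzymes, Lox, the lysyl oxidase that cross-links elastin and collagen, had 657, 615 and 659 CPM in NC, 2195, 1788 and 2481 CPM in NC + TGF-β1, 307, 448 and 405 CPM in siPDCD5, and 1849, 1786 and 1668 CPM in siPDCD5 + TGF-β1. It rose after TGF-β1 by 1.74 in NC cells (SE 0.14, edgeR adjusted p = 7.36e-07) and by 2.19 in siPDCD5 cells (SE 0.14, edgeR adjusted p = 1.14e-07) on the log2 scale. Knockdown lowered it without the cytokine (log2 fold change −0.73, SE 0.14, edgeR adjusted p = 0.00812), while the value with it was −0.29 (SE 0.14, edgeR adjusted p = 0.374) with overlapping groups. Loxl2, a related oxidase, fell after knockdown with the cytokine, from 455, 608 and 500 CPM to 379, 352 and 387 CPM (log2 fold change −0.48, SE 0.11, edgeR adjusted p = 0.0491). This call was kept in 2 of the 12 fits with a library left out (edgeR adjusted p from 0.0335 to 0.209) and in 2 of 7 other settings. Timp3, the matrix-bound inhibitor of metalloproteinases, fell after knockdown from 1200, 1194 and 1270 CPM to 730, 902 and 821 CPM without the cytokine (−0.58, SE 0.10, edgeR adjusted p = 0.00367) and from 3452, 3289 and 3811 CPM to 2620, 2439 and 2360 CPM with it (−0.51, SE 0.10, edgeR adjusted p = 0.0162). The latter call was lost with quantile normalization (limma adjusted p = 0.102), in the 6 libraries alone (edgeR adjusted p = 0.0907), and without NC + TGF-β1 replicate 3 (0.0533) or siPDCD5 + TGF-β1 replicate 2 (0.0942) or 3 (0.104).

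Of the integrin receptors on the list, 5 could be tested. Of these, 4 rose after TGF-β1 in NC cells (Itga5, Itgb1, Itgb3 and Itgb5) and 4 in siPDCD5 cells, where 8.57% and 8.5% of all genes rose. After knockdown 0 of the 5 passed in either state, where 3.44% and 1.55% of all genes did, so that nothing is read from this count. In the elastin receptor complex, which binds elastin peptides at the cell surface, 2 of 3 genes fell after TGF-β1 in NC cells (Glb1 and Ctsa) and 2 in siPDCD5 cells (Neu1 and Ctsa), where 6.77% and 7.61% of all genes fell.

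**Figure D5:**
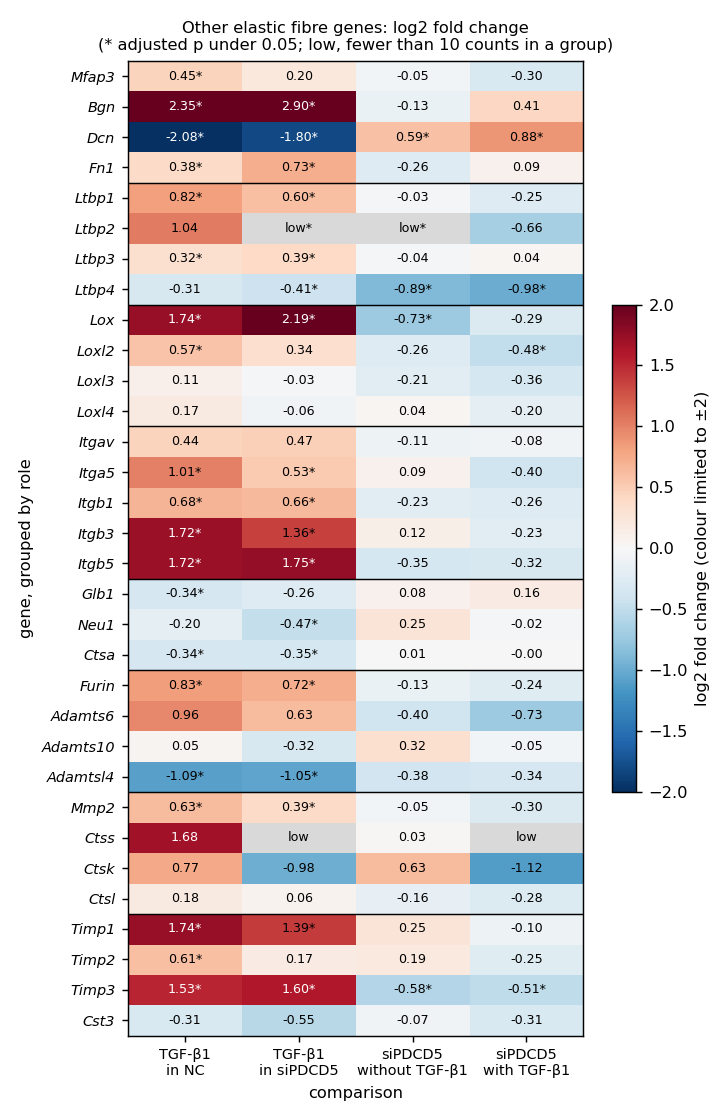
Log2 fold change of the 32 tested genes of the wider elastic fibre list (rows, grouped by role) in the 4 comparisons (columns), in red for higher and blue for lower. An asterisk marks an adjusted p under 0.05, grey cells marked low have fewer than 10 counts in a group, and the knockdown columns hold asterisks for Dcn, Ltbp2, Ltbp4, Lox, Loxl2 and Timp3.

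The genes whose levels followed Fbln5 most closely were sought among the 9122 tested genes whose log2 CPM averaged 3 or more. The 5 with the highest Pearson r of log2 CPM over the 12 libraries were Ccdc80 (0.985), a secreted matrix-binding protein, Nexn (0.977), the actin-binding nexilin, Fmod (0.976), the collagen-binding proteoglycan fibromodulin, Perp (0.972), a desmosome-associated membrane protein, and Igsf3 (0.971), an immunoglobulin superfamily protein. The 12 points share 4 groups, so r mostly reflects the group means. For the deviations from the group means r was 0.378, 0.300, 0.943, 0.416 and −0.285 for the same genes. Within the set, r with Fbln5 was 0.74 for Fbn1, 0.63 for Fbln2, 0.32 for Efemp2, 0.19 for Emilin1 and −0.19 for Efemp1. For the deviations from the group means it was −0.0015, −0.086, −0.325, −0.020 and 0.307 for these genes. The 5 genes were picked by r over these same libraries, which already contains the deviations within groups. Their r of deviations is therefore a description and no separate support. Of the 5, Fmod had the highest r of deviations. It had a mean of 13.4 CPM in NC, 18.3 CPM in NC + TGF-β1, 6.37 CPM in siPDCD5 and 9.87 CPM in siPDCD5 + TGF-β1.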

How the data were processed

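RNA of 12 C22 libraries was prepared with the QuantSeq 3′ mRNA-seq kit. The authors used Bowtie2 for alignment and Bedtools for coverage of genes by unique and multiple alignments, and the deposited values are raw whole counts by gene symbol. The processing notes name mm10. The annotation and the use of strand are not given in the sources used here, and genes that overlap or share sequence with others have uncertain counts. The paper names quantile normalization with edgeR as a later step.

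The 12 tables share 23282 rows, of which 44 repeat a symbol and were kept as separate genes. Genes were filtered with edgeR 4.0.16 (filterByExpr), libraries were scaled by TMM, and 1 model with 4 groups was fitted to 12425 genes by the quasi-likelihood method in R 4.3.3. CPM values use TMM-scaled library sizes, log2 CPM a prior count of 2, and 95% intervals come from the same fit. Figures were drawn with Python 3.11.15 and matplotlib 3.10.9. The scripts were tested on simulated data. No 2 libraries of a group were identical. Positions are from GENCODE M21 and promoter letters from RefSeq.

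The elastic fibre genes and all lists were chosen with earlier results of these data known. The 10 genes are all named. From the wider list those called after knockdown, up to 2 with the largest change per comparison, and the 5 genes most like Fbln5 are named. The integrins and elastin receptor genes were named after their values were seen. Promoters lying in annotated exons are not shown. Alternatives were upper-quartile factors, DESeq2 1.42.0, quantile normalization with limma 3.58.1, no filter, a minimum of 10 counts per library, a fit of the 6 libraries compared alone, the replicate number as a block, and each library left out in turn.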

Additional observations from a re-analysis of the deposited data

How the results depend on the processing

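Of the 6 tested genes among the 10, none changed its side of the threshold under any alternative or with any library left out, Fbln5 being counted for TGF-β1 in NC cells alone. Values near 0 changed sign. After knockdown with TGF-β1, Efemp1 was 0.012 on the log2 scale with quantile normalization and −0.14 to 0.13 with a library left out, Efemp2 −0.16 to 0.036 and Emilin1 −0.14 to 0.028. After knockdown without it, Efemp2 was −0.0006311 without a filter and −0.048 to 0.077 with a library left out, and its difference of responses −0.18 to 0.023. The cause was not tested.

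Counts over all genes moved more. After knockdown without TGF-β1, where 427 genes passed, DESeq2 called 714, and leaving out a library gave 167 to 667, lowest without NC replicate 2, with 235 without NC replicate 1, 206 without NC replicate 3, 210 without siPDCD5 replicate 3, and highest without NC + TGF-β1 replicate 2. With TGF-β1, where 192 passed, DESeq2 called 459, the 6 libraries alone 44 (fewer samples), and leaving out a library gave 73 to 322, highest without NC + TGF-β1 replicate 2, with 127 without NC replicate 3, 111 and 121 without NC + TGF-β1 replicates 1 and 3, and 87, 81 and 73 without siPDCD5 + TGF-β1 replicates 1, 2 and 3. For the difference of responses DESeq2 called 15, and leaving out a library gave 0 to 2. Of the wider elastic fibre list, DESeq2 called 8 after knockdown without TGF-β1. With TGF-β1, quantile normalization and the 6 libraries alone called 2 each, and leaving out a library 2 to 4, with 2 without NC + TGF-β1 replicate 3 and without siPDCD5 + TGF-β1 replicate 2 or 3. Across the scalings the median of all genes stayed within 0.1 of that reported.

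With the replicate number as a block, 1687, 1731, 301 and 107 genes were called in the 4 comparisons, 1669, 1712, 296 and 106 of them shared with the fit without it. Deviations of same-numbered libraries correlated at −0.324 to 0.166, and a library correlated best with its own number for 5, 2, 1 and 0 of the 6 libraries in the 4 comparisons. The comparisons thus differed. For TGF-β1 in NC cells the mean r for the same number was 0.113, and for knockdown with TGF-β1 it was −0.14. Deviations cancel within a group, so the mean r for other numbers follows from these values and is not given. Nothing says what the numbers share, so they were not taken as pairs and the block is an alternative. At this depth 4 of the 10 genes were too low to test.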
